A study of Rattus norvegicus with 6 samples.

Results

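The collagen chain genes are the genes of the count table whose symbol is Col, a type number, the letter a and a chain number. The table of 19825 genes held 37 of them, which were divided by textbook class into 11 fibrillar chains, 6 chains of basement membranes, 7 FACIT chains and 13 others. Their messages were counted by RNA sequencing in H9C2 cells, an established rat line of embryonic heart myoblasts, which the labels name cardiomyocytes. In 3 libraries (siPUM2 1, 2 and 3) PUM2, a Pumilio protein that binds messenger RNA, had been knocked down with transfected small interfering RNA. The 3 control libraries (NC 1, 2 and 3) were made from cells given an empty vector, per the labels, so by that wording the groups also differ in the kind of nucleic acid transfected. The labels give no dose, no time after transfection and no sequence of the interfering RNA, and nothing in them says whether each library had a culture of its own. All p-values therefore measure only the spread between these libraries, which may be technical.

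Collagens are secreted proteins whose chains wind into helical trimers rich in glycine and hydroxyproline. Fibrillar collagens such as types I, III and V pack into the banded fibrils that give connective tissue its tensile strength, and type IV collagen forms the network of basement membranes. FACIT collagens, whose helix is interrupted, sit on the surface of fibrils, and the remaining types form beaded filaments, short-chain networks, anchoring fibrils or transmembrane proteins. In the heart, fibroblasts are the main source of types I and III, and their build-up is the core of fibrosis, which the series names as its interest.

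Many trimers mix products of separate genes, so the results below compare partner chains as well as single genes. The DNA in front of 2 such pairs is shown first, because the ratio of their chains is compared below and the pairs differ in layout: one shares a start region and the other has separate promoters. Sequences are from RefSeq on the rat build GRCr8, read 5′ to 3′, and capitals mark each match to GGGCGG or its reverse complement, a motif called the GC box. Windows were also searched for CCAAT and TATAAA on both strands, and these 3 stretches held no match to either (the full 250 bases before Col4a1 and before Col4a2 each hold a CCAAT). The first stretch lies between the starts of Col4a2, on the minus strand, and Col4a1, on the plus strand, which are divided by only 76 bases (chr16:84885521-84885596, plus strand, written toward Col4a1).

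Col4a2 to Col4a1: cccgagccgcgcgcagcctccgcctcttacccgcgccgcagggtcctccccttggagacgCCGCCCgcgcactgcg

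The other 2 stretches are the 250 bases before the start of Col8a1 (chr11:56246532-56246781, plus strand) and of Col8a2 (chr5:143870519-143870768, plus strand), which encode the chains of type VIII collagen on different chromosomes. The first held 4 GC box matches and the second 5, of which the last 2 overlap.

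Col8a1: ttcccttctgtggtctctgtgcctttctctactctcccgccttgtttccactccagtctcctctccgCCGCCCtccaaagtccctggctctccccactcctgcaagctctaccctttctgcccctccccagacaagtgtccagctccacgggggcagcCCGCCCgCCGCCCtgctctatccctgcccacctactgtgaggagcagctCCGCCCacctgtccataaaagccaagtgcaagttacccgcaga

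Col8a2: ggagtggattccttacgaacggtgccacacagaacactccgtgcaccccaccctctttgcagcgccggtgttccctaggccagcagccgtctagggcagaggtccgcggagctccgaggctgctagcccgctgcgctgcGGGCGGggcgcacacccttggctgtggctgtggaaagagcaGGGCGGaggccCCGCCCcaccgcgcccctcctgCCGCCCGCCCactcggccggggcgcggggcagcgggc

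The RefSeq table held a start for 30 of the 37 chains, and none for the abundant Col1a1 and Col3a1. A GC box was in the 250 bases before 17 of these 30 (56.7%), against 32.4% of 27457 genes of all kinds. The match between Col4a2 and Col4a1 lies in both windows and counts for both. Of the 18 chains here that were tested for expression 15 held a GC box, and the share of all genes was not split by expression. CCAAT was found in 11 of 30 (36.7%, against 34.3%) and TATAAA in 4 of 30 (13.3%, against 13.1%). These tallies include Col1a2 and Col16a1, whose annotated starts looked doubtful, a judgement that was not tested. Among the other 28 chains the GC box was in 16, CCAAT in 10 and TATAAA in 3. These matches describe letters and not bound sites. The other type IV genes are also paired head to head in that table, with 412 bases between Col4a3 and Col4a4 and 1414 between Col4a5 and Col4a6.

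The libraries held 27704702 to 30579237 counts. Pum2 had 223, 228 and 225 CPM (counts scaled to library size with TMM factors) in the NC libraries 1, 2 and 3. The siPUM2 libraries had 127, 126 and 120 CPM of it, a log2 fold change of -0.86 ± 0.0279 (SE). Of 10 markers of cardiac muscle, 8 were in the table and their summed level was 304 to 362 CPM in NC and 466 to 520 CPM in siPUM2. Most of that was the troponin gene Tnnt2, which rose (log2 fold change 0.67). Tnni3, Myh7, Actc1 and Myl2, which define working heart muscle, had at most 7 counts in any library. Nkx2-5 (455 to 641 counts), Gata4 (250 to 325) and Myh6 (5 to 21) were tested and not called. The myoblast gene Myod1 had 2147 to 2543 counts. Of the 9 skeletal muscle markers listed 6 were tested. Myog (20.1 to 9.23 CPM, log2 fold change -1.12) and Chrnd (-0.89) fell, and Des rose (0.17). Myod1 (0.05), Acta1 and Ckm were not called. The untested Myf6 and Actn2 had at most 4 and 3 counts in any library, and Chrna1 had 3 to 13. Of the fibroblast markers, 9 of 10 were listed (1654 to 1734 CPM summed in NC, 1767 to 1802 CPM in siPUM2), with members going both ways: Thy1 (0.31) and Ddr2 (0.18) rose, S100a4 (-0.18) and Pdgfrb (-0.08) fell, and Pdgfra, Dpt, Fap, Lum and Dcn had no more than 6 counts. The 7 endothelial markers listed summed to 2.25 to 2.64 CPM, most of it Vwf (57 to 70 counts, not called). Pecam1, Cdh5, Kdr, Tie1, Erg and Tek had no more than 5 counts. The 4 macrophage markers listed summed to 36.8 to 37.6 CPM in NC and 38.6 to 40.8 CPM in siPUM2, most of it Cd14 (1007 to 1148 counts), and none was called. The 5 Schwann cell markers listed summed to 0.828 to 1.14 CPM in NC and 0.534 to 0.792 CPM in siPUM2, with none called. The 5 chondrocyte markers listed summed to 19.5 to 22.7 CPM in NC and 18.8 to 22.9 CPM in siPUM2. Most of that was Sox9 (19.2 CPM in NC, 19.8 CPM in siPUM2, not called). Matn3, on 20 to 50 counts, fell (log2 fold change -0.71, adjusted p = 0.0432, edgeR). Comp, Hapln1 and Chad had at most 10, 4 and 1 counts in any library. The part of these markers in the collagen results was not tested.

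The collagen messages of these cells were dominated by type I. Per length, as FPKM (fragments scaled to gene length and library size), Col1a2 stood at 1544 ± 8.61 and Col1a1 at 1286 ± 13.0 in NC (SD, n = 3). Together they made 77.6% to 77.7% of the summed collagen FPKM in NC and 78.1% to 78.6% in siPUM2. Type III collagen (Col3a1) followed at 320 ± 3.26 FPKM. Next came the basement membrane chains Col4a1 (160 ± 2.24) and Col4a2 (109 ± 3.31) and the fibril-initiating type V chains Col5a2 (92.8 ± 0.369) and Col5a1 (48.4 ± 1.74). No 2 of these 7 chains overlapped in level across the NC libraries.

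**Figure D1:**
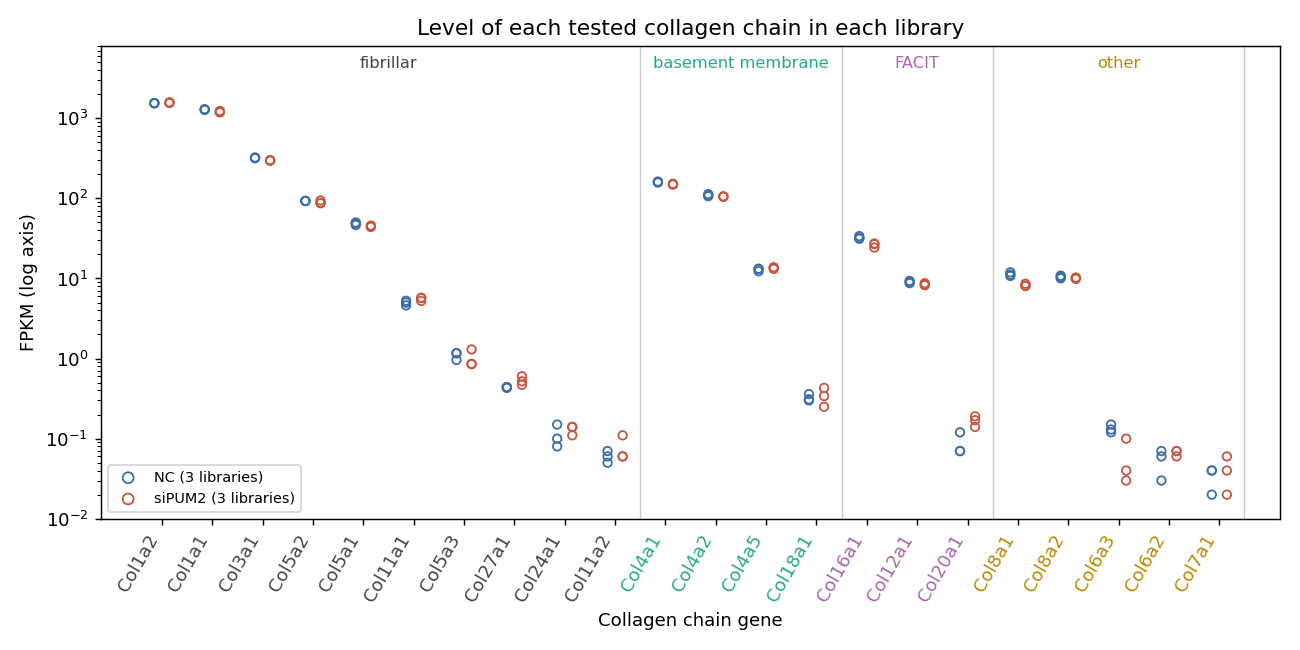
FPKM of the 22 tested collagen chains in each of the 6 libraries, on a log axis, grouped by class and ordered within a class by the NC mean (blue, NC; red, siPUM2; 3 libraries each). Levels span from 1544 FPKM for Col1a2 to under 0.1 FPKM for Col7a1, while the groups lie close together for most chains.

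Below these stood Col16a1, a FACIT chain, at 32.4 ± 1.30 FPKM in NC, and then a cluster of chains near 10. Col4a5 was at 12.9 ± 0.507, Col8a1 at 11.3 ± 0.604, Col8a2 at 10.5 ± 0.390 and Col12a1 at 9.07 ± 0.295 FPKM. Within NC the libraries of Col8a1 and Col8a2 overlapped. In siPUM2 Col8a1 (8.03 to 8.59 FPKM) lay below every library of Col8a2 (9.87 to 10.22) and overlapped Col12a1 (8.24 to 8.71). Col11a1, a minor fibrillar chain best known from cartilage, was at 4.96 ± 0.332 FPKM, and Col5a3 at 1.10 ± 0.118.

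The remaining chains were at under 1 FPKM. Of all 37, 15 did not pass edgeR's filter on low counts and were not tested, and none of these had more than 12 counts in any library. They were Col19a1, Col9a3, Col14a1, Col2a1, Col4a6, Col6a1, Col17a1, Col26a1, Col9a2, Col10a1, Col6a4, Col4a3, Col28a1, Col13a1 and Col6a5. Among them are the cartilage chains of types II, IX and X and the kidney and lung chain Col4a3. Type VI collagen, a beaded-filament protein whose chains a1, a2 and a3 assemble together and which is abundant in muscle matrix and fibroblasts, was nearly unmeasured here. Col6a1 had 1 to 7 counts and Col6a2 5 to 12 counts per library. These low chains limit any statement about them to counts.

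The collagen genes as a whole took a slightly smaller share of the counts in siPUM2. All 37 chains together held 2.15%, 2.16% and 2.17% of the counts in NC 1, 2 and 3 and 2.12%, 2.08% and 2.08% in siPUM2 1, 2 and 3, and the groups did not overlap. The mean went from 2.16 ± 0.00927% to 2.09 ± 0.0240% (SD, n = 3), a difference of -0.0658 percentage points. Type I chains differed by -0.0348 points (1.62% to 1.59%) and all other chains by -0.0309 points (0.538% to 0.507%), so the smaller part of the pool moved by the larger proportion. Most of the difference lay in 1 gene: without Col1a1 it was -0.0186 points. These sums follow from the members and carry no test. In whole-culture RNA, fewer cells that make collagen and less collagen message per cell cannot be told apart.

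**Figure D2:**
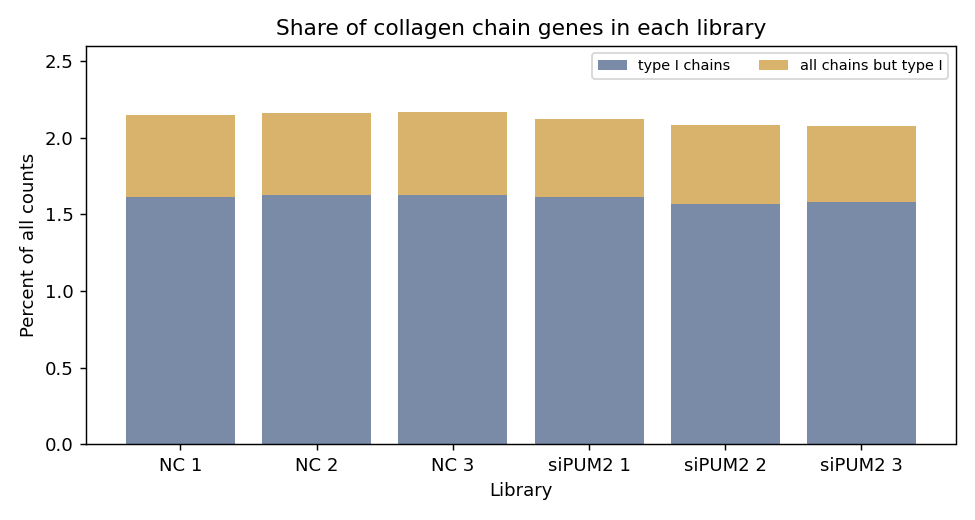
Percent of all counts in each library that fell on type I chains (grey-blue) and on all other collagen chains (yellow), stacked, 1 bar per library. The 3 NC bars reach 2.15% to 2.17% and the 3 siPUM2 bars 2.08% to 2.12%.

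Setting siPUM2 against NC addresses which messages differ where PUM2 is lowered. Of the 37 chains, 8 fell, 2 rose, 12 were tested and not called and 15 were not tested, by edgeR's quasi-likelihood test at a Benjamini-Hochberg adjusted p under 0.05. Over all 12985 genes tested, 28.4% were called, 13.3% lower and 15.1% higher. Counts this deep detect small changes, so a nearer background is that of genes with a mean of at least 30 CPM, a level chosen after seeing the data. Of those 43.7% were called and 21.6% were lower, and of the 13 collagen chains at that level 7 fell and 1 rose. The median log2 fold change of these 13 was -0.08, against -0.005 for all genes at that level. The groups did not overlap for 12 of the 22 tested chains, against 39.9% of all genes. Of these 12, 9 were among the 13 chains at 30 CPM or more, a level whose own share was not computed.

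By class, 3 of the 10 tested fibrillar chains fell and 1 rose, and 1 of 4 basement membrane chains fell. Of 3 FACIT chains 2 fell and 1 rose, and 2 of 5 other chains fell. The share called was 28.4% of all genes tested and 43.7% of those at 30 CPM or more. On log2(FPKM + 1) or log2(FPKM + 0.1) with limma, 4 chains kept their calls (Col16a1, Col8a1, Col3a1 and Col4a1) and 6 lost them (Col1a1, Col5a1, Col12a1, Col11a1, Col6a3 and Col20a1).

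**Figure D3:**
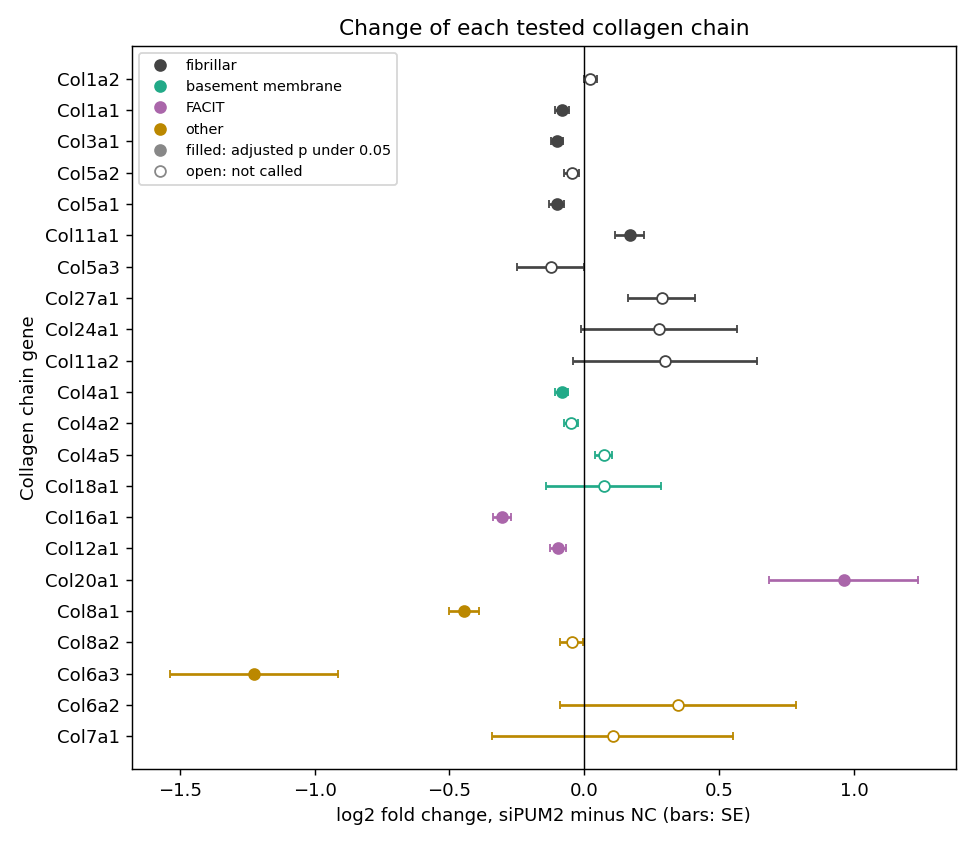
Log2 fold change (siPUM2 minus NC) of each tested chain with its SE, coloured by class, filled where the adjusted p was under 0.05. The abundant chains sit close to 0 with short bars, Col16a1 and Col8a1 lie apart from them to the left, and Col6a3 and Col20a1 have the widest bars of the called chains.

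Among the abundant fibrillar chains, Col1a1, Col3a1 and Col5a1 fell by a few percent, and Col1a2 and Col5a2 were not called. Col3a1, whose product forms supple fibrils with type I, had 1744, 1717 and 1707 CPM in the NC libraries against 1611, 1612 and 1596 CPM in the siPUM2 libraries. Every siPUM2 library lay below every NC library. Its log2 fold change was -0.10 ± 0.0236 (SE), or 93.2% of the control level (adjusted p = 0.00157, edgeR), and it stayed called with any 1 library left out (highest adjusted p = 0.0133).

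Col1a1, the a1 chain of type I, was at 8364, 8487 and 8504 CPM in NC and at 8123, 7798 and 8006 CPM in siPUM2, without overlap. Its log2 fold change of -0.08 ± 0.0249 left 94.4% of the control level (adjusted p = 0.0116, edgeR). That call was lost without NC 2 (adjusted p = 0.0716) and without siPUM2 2 (0.0844). The partner chain Col1a2 was at 7826, 7797 and 7718 CPM in NC and at 7968, 7859 and 7874 CPM in siPUM2. It thus lay above NC in every siPUM2 library and was not called (log2 fold change 0.02 ± 0.0240, adjusted p = 0.544).

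Type V collagen, which sits inside type I fibrils and governs their width, had 1 called chain. Col5a1 was at 428, 460 and 447 CPM in NC and at 421, 417 and 406 CPM in siPUM2. The groups were apart, with siPUM2 1 closest to NC 1. Its log2 fold change was -0.10 ± 0.0272 (adjusted p = 0.00489, edgeR), and the call was lost without NC 2 (0.0512). Col5a2 was at 663, 669 and 666 CPM in NC and at 630, 677 and 627 CPM in siPUM2, where siPUM2 2 exceeded all NC libraries. It was not called (log2 fold change -0.05, adjusted p = 0.217), but it was without siPUM2 2 (-0.08, 0.0321) and when a trend with gene length was taken out of each library (-0.07, 0.0423). The third chain of the type, Col5a3, was not called either (-0.13 ± 0.125), and passed only without siPUM2 2 (-0.35, adjusted p = 0.0352).

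Col11a1 was the only fibrillar chain called higher. Its product can take the place of a type V chain in heterotypic fibrils. It was at 40.7, 46.6 and 44.0 CPM in NC and at 50.6, 50.5 and 46.5 CPM in siPUM2. The groups overlapped, since NC 2 stood level with siPUM2 3. The log2 fold change was 0.17 ± 0.0538 (adjusted p = 0.0193, edgeR). The call depended on single libraries: it was lost without NC 1 (adjusted p = 0.165), NC 3 (0.0503), siPUM2 1 (0.0718) or siPUM2 2 (0.0853).

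The other fibrillar chains were low and uncalled. Col27a1, a chain of developing cartilage, was at 4.47, 4.61 and 4.53 CPM in NC and 5.45, 6.23 and 4.95 CPM in siPUM2. All siPUM2 libraries lay above NC, with a log2 fold change of 0.29 ± 0.125 (adjusted p = 0.0885), and it was called only without siPUM2 3 (0.36, 0.0453). Col24a1 (0.28 ± 0.289) and Col11a2 (0.30 ± 0.341) had SEs as large as their changes.

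Of the basement membrane chains, Col4a1 fell and its partner Col4a2 was not called. Col4a1 was at 1172, 1183 and 1201 CPM in NC and at 1123, 1104 and 1129 CPM in siPUM2. Its log2 fold change was -0.08 ± 0.0239 (adjusted p = 0.00844, edgeR), with the call lost without siPUM2 2 (0.0549). Col4a2 was at 756, 770 and 800 CPM in NC and at 750, 743 and 754 CPM in siPUM2. These libraries did not overlap either, though NC 1 and siPUM2 3 nearly met. The log2 fold change was -0.05 ± 0.0252 (adjusted p = 0.149), and Col4a2 was called only with the length trend removed (-0.07, 0.0197).

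Col4a5, a type IV chain encoded on the X chromosome, was at 98.3, 91.3 and 96.8 CPM in NC and at 97.7, 103 and 101 CPM in siPUM2. The groups overlapped, and the log2 fold change of 0.07 ± 0.0321 was not called (adjusted p = 0.0972). Col18a1, a basement membrane collagen that carries the endostatin fragment, had 49, 62 and 52 counts in NC and 69, 39 and 56 in siPUM2, with no call (0.07 ± 0.213).

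The FACIT chains held one of the clearest falls. Col16a1, a fibril-associated chain that also meets integrins at the cell surface, was at 215, 204 and 199 CPM in NC and at 174, 171 and 155 CPM in siPUM2. The gap between the groups was wider than the range within either. Its log2 fold change was -0.31 ± 0.0343, which left 80.9% of the control level (adjusted p = 7.16e-08, edgeR), and with single libraries left out it ran from -0.34 to -0.26, always called. Col12a1, which links fibrils in tissues under load, was at 117, 122 and 124 CPM in NC and at 110, 116 and 113 CPM in siPUM2. NC 1 and siPUM2 2 were almost equal. Col12a1 changed by a log2 fold change of -0.10 ± 0.0303 (adjusted p = 0.0147), and the call was lost without NC 2 (0.0526), NC 3 (0.0728) or siPUM2 1 (0.104).

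Col20a1, a little-studied FACIT chain, rose from a very low level. It had 16, 19 and 31 counts in NC and 46, 41 and 36 in siPUM2, that is 0.738 ± 0.238 against 1.45 ± 0.202 CPM (SD, n = 3). The groups did not overlap, with NC 3 closest to siPUM2. The log2 fold change was 0.96 ± 0.276 (adjusted p = 0.00902, edgeR), with the call lost without NC 1 (0.81, 0.0553).

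Among the other chains, Col8a1 fell and Col8a2 did not pass. Type VIII is a short-chain network collagen of vessel walls and of the cornea. Col8a1 was at 45.8, 49.0 and 44.0 CPM in NC and at 33.5, 33.0 and 35.4 CPM in siPUM2. The lowest NC library stood well above the highest siPUM2 library. Col8a1 had a log2 fold change of -0.45 ± 0.0560, or 73.4% of the control level (adjusted p = 4.69e-07, edgeR), and it ran from -0.48 to -0.40 with single libraries left out, always called. Col8a2 was at 57.5, 62.0 and 59.6 CPM in NC and at 56.5, 58.5 and 58.6 CPM in siPUM2, overlapping (-0.05 ± 0.0424, adjusted p = 0.457).

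Col6a3, the long chain of type VI collagen, fell further than any other tested chain, on few counts. It had 53, 43 and 51 counts in NC and 35, 10 and 15 in siPUM2. The 3 siPUM2 libraries were all lower, but siPUM2 1 stood nearer to NC than to the other siPUM2 libraries. The log2 fold change was -1.23 ± 0.312 (adjusted p = 0.00342, edgeR). With single libraries left out it ran from -1.91 (without siPUM2 1) to -0.92, always called (highest adjusted p = 0.0366). Its partners gave no comparison, since Col6a1 was too low to test and Col6a2 (10, 12 and 5 counts in NC, 10, 11 and 12 in siPUM2) was not called. Col7a1, the chain of the anchoring fibrils of skin, had 5 to 17 counts per library and was not called.

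**Figure D4:**
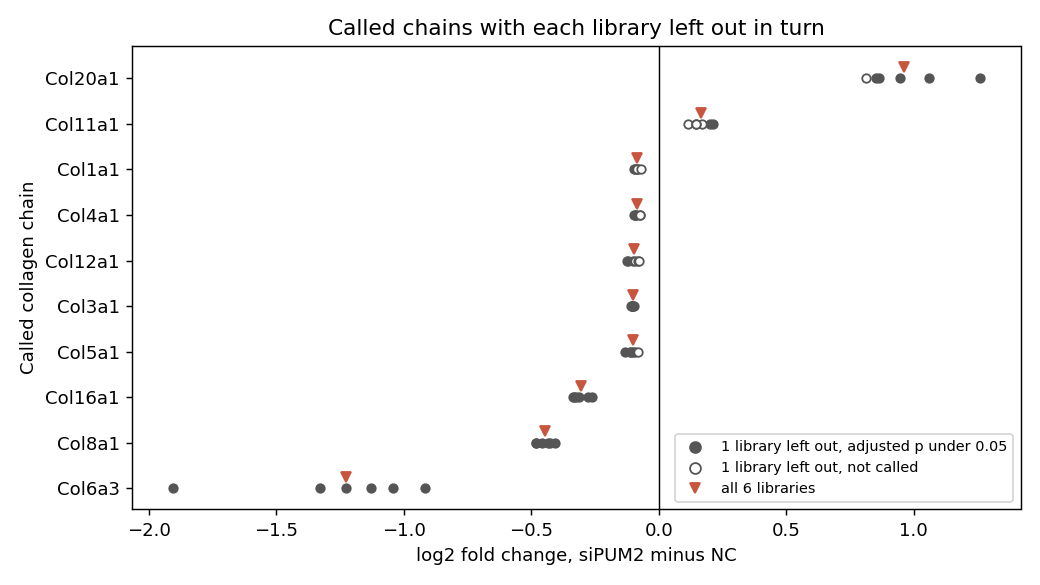
Log2 fold change of each called chain with all 6 libraries (red triangle) and with each library left out in turn (grey, filled where still called). Every value keeps its side of 0; Col16a1, Col8a1, Col3a1 and Col6a3 stay called in all 6 such fits, Col11a1 in 2 of them.

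Ratios of partner chains within a library do not depend on how libraries are scaled to each other, so they were set side by side as ratios of FPKM. With 3 libraries against 3 an exact permutation test cannot give a p under 0.1, so none was run and the values are a description. The ratio of Col1a1 to Col1a2 was 0.819, 0.834 and 0.845 in NC and 0.781, 0.760 and 0.779 in siPUM2. The groups were apart, and the ratio went from 0.833 ± 0.0128 to 0.774 ± 0.0115 (SD, n = 3). In CPM, which takes no account of length, the ratio was 1.07, 1.09 and 1.10 in NC and 1.02, 0.992 and 1.02 in siPUM2, so which message was the more abundant depended on the scale.

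The ratio of Col8a1 to Col8a2 differed more, from 1.11, 1.10 and 1.03 in NC to 0.826, 0.786 and 0.842 in siPUM2. The a1 message was therefore the more abundant per length in every NC library and the less abundant in every siPUM2 library. That crossing rests on the gene lengths behind FPKM, since in CPM the ratio was below 1 in all 6 libraries (0.738 to 0.796 in NC, 0.564 to 0.605 in siPUM2). For the pair that shares its start region, the ratio of Col4a1 to Col4a2 was 1.48, 1.47 and 1.44 in NC and 1.43, 1.42 and 1.43 in siPUM2. These groups did not overlap, but the gap between NC 3 and siPUM2 1 was smaller than the spread within NC. The ratio of Col5a1 to Col5a2 overlapped (0.503 to 0.536 in NC, 0.481 to 0.521 in siPUM2).

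Further pairs were compared after the data were seen. The ratio of Col11a1 to Col5a1 went from 0.0992, 0.106 and 0.103 in NC to 0.125, 0.126 and 0.119 in siPUM2, without overlap. A higher ratio follows from the calls already given, Col11a1 higher and Col5a1 lower, so it is no separate result. That of Col3a1 to Col1a1 overlapped (0.245 to 0.255 in NC, 0.242 to 0.252 in siPUM2).

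**Figure D5:**
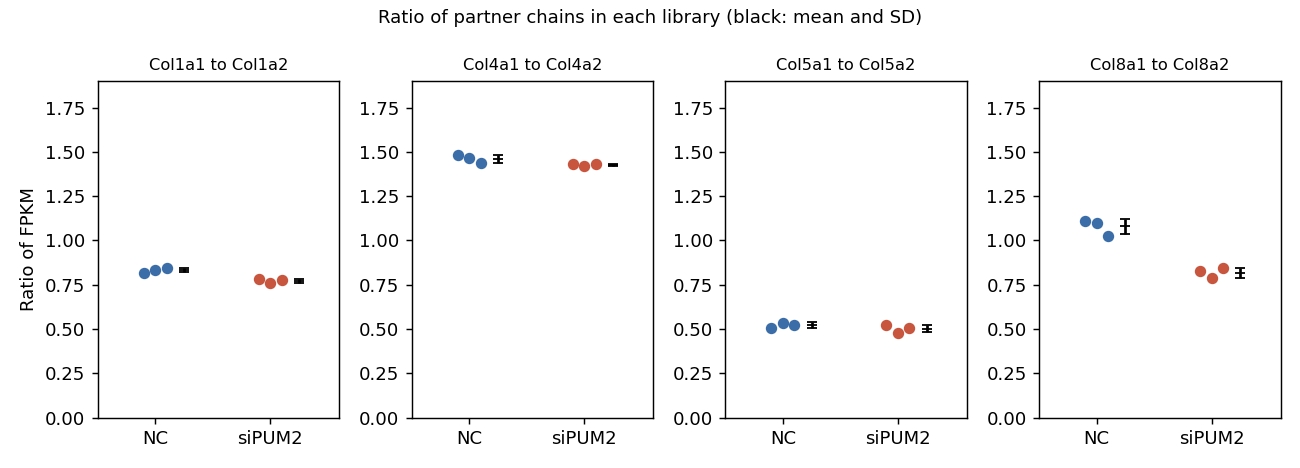
Ratio of the FPKM of partner chains in each library (blue, NC; red, siPUM2), with the mean and SD in black, on axes that start at 0. The groups are apart by the widest gap for Col8a1 to Col8a2 and overlap for Col5a1 to Col5a2.

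The genes that modify, carry, cut, crosslink, bind and break down collagen were read from 7 lists. Of 77 list entries 67 were in the table and 53 were tested, of which 23 rose, 12 fell and 18 did not pass, where of all genes tested 15.1% rose and 13.3% fell. Of all genes at 30 CPM or more 43.7% were called. The median log2 fold change of the 53 tested list genes was 0.06. It was 0.001 over all genes tested and -0.005 over genes of at least 30 CPM. Of the enzymes and partners of prolyl and lysyl hydroxylation, 5 of 13 tested rose and 8 did not pass by edgeR (median 0.06), but only 3 of them rose without NC 1, siPUM2 1 or siPUM2 2. P3h4, a partner of lysyl hydroxylase, rose by 0.20, the lysyl hydroxylase Plod1 by 0.17 and the prolyl 3-hydroxylase family member P3h3 by 0.15. Of chaperones and secretion factors 4 of 10 rose and 2 fell (median 0.05). Of the falls, 1 was left without NC 1, NC 2, siPUM2 1 or siPUM2 2, and both were lost without NC 3. The rises were led by the prolyl isomerase Fkbp14 (0.41), the COPII coat gene Sec24d (0.24) and the retrieval receptor Kdelr2 (0.09).

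For the next 3 lists, the shares over all genes tested were again 15.1% higher and 13.3% lower. Of genes at 30 CPM or more 43.7% were called. Of genes that trim the propeptides, 3 of 5 tested rose and 2 did not pass by edgeR (median 0.15). These were the C-proteinase Bmp1 (0.19), its relative Tll1 (0.43; not called on FPKM by limma, adjusted p = 0.0540 and 0.0852 at the 2 pseudocounts) and the proteinase enhancer Pcolce (0.15; 1687 ± 19.9 to 1876 ± 14.9 CPM, SD, n = 3). Among the 5 lysyl oxidases that crosslink collagen, Loxl3 (-0.26) and Loxl1 (-0.11) fell along with Loxl2, while Lox rose by 0.10, a call lost without NC 1 (adjusted p = 0.0525, edgeR). The Loxl2 groups overlapped, and its change of -0.13 was not called without NC 3 (-0.08, adjusted p = 0.0798), without siPUM2 2 (0.0565) or on FPKM by limma (0.199 and 0.187). The median log2 fold change of the 5 was -0.11. Without NC 1, 4 of the 5 were lower. The fibril partners split (median 0.10), with 3 of 5 tested higher, among them Thbs1 (0.16) and Bgn (0.13), and 2 lower, among them Postn (-0.63). Without NC 3 only 1 was lower.

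Shares over all genes were 15.1% higher and 13.3% lower, with 43.7% called in either direction at 30 CPM or more. Of 8 collagen receptors tested 6 rose and 2 fell, with a median of 0.22. Of the 6, Adgrg6 (0.17, adjusted p = 0.0490, edgeR) was called in only 2 of the 6 fits with a library left out. It was lost without NC 1 (0.11, adjusted p = 0.234), NC 2 (0.0722), siPUM2 2 (0.121) or siPUM2 3 (0.153), and with DESeq2 (0.142), voom (0.0531) and RLE scaling (0.0530). Itga1, an integrin chain that prefers type IV collagen, rose by 0.76 (30.2 ± 0.978 to 51.1 ± 2.90 CPM), and the common beta chain Itgb1 by 0.32. Itga11, the integrin chain for fibrillar collagen, fell by 0.63 (155 ± 9.25 to 100.4 ± 2.43 CPM; adjusted p = 6.71e-14, edgeR). Of 7 tested genes of collagen breakdown, inhibitors included, 1 rose and 3 fell, with a median of -0.09. The inhibitor Timp2 rose by 0.19, while the inhibitor Timp1 fell (-0.09, adjusted p = 0.0113, edgeR). The Timp1 call was lost without siPUM2 1 (0.102) and on FPKM by limma (0.0606 and 0.0589). The membrane collagenase Mmp14 (-0.18) and the dipeptidase Pepd (-0.22) also fell.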

How the data were processed

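RNA was sequenced from 3 NC and 3 siPUM2 libraries of H9C2 cells. Per the labels' protocols, polyadenylated RNA was made into strand-marked libraries read from both ends. Of tools and builds, HISAT2, DESeq2 and mRatBN7.2 appear in the submitters' processing notes. Their versions, the annotation, the counter and its use of strand were not given in the sources used here. Raw whole-number counts of each gene were deposited by the authors, with FPKM values rounded to 2 decimals, per the file headers and values. Of 37 chains, 1 (Col6a5) had no FPKM row.

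The test was edgeR 4.0.16 (glmQLFit, glmQLFTest, TMM, filterByExpr, group only) in R 4.3.3 on all 12985 genes that passed the filter, which removed 6840 genes with 0.0465% of the counts. P-values were adjusted over all of these. SEs were derived from the quasi-likelihood F. The fit was tested on simulated data. No library was a duplicate: within groups the chi-square of counts divided by its degrees of freedom was 2.08 to 3.82, highest for siPUM2 3.

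The members, classes and lists were chosen with earlier results of these data known. Every member is named, and from each pathway list the 3 tested genes with the lowest p. Loxl2, Timp1, Adgrg6 and the markers with values were named after these were seen. Symbols and promoters came from RefSeq (GRCr8), with 1 pathway gene, Crtap, matched by an older symbol. Alternatives were other scalings, DESeq2 1.42.0, limma 3.58.1 with voom or FPKM, other filters and thresholds, a replicate block, removal of the length trend and each library left out.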

Additional observations from a re-analysis of the deposited data

How the results depend on the processing

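The same 10 chains were called under other scalings, DESeq2, voom and both other count filters. The replicate block called the same 10 chains too, 2 higher and 8 lower (1984 and 1747 of all genes). The numbers are not taken as pairs: deviations of same-numbered libraries correlated at 0.0278, 0.0689 and -0.0173, and not every library correlated best with its own number. On FPKM with a pseudocount of 1 or 0.1, 0 chains were higher and 4 lower at an adjusted p under 0.05 by limma, against 2 and 8 at an unadjusted p under 0.05 and 2 and 8 called by edgeR and by DESeq2 (of all genes, 1160 higher and 1086 lower, or 1176 and 1120), and 7 collagen-related genes were lower under both. At an adjusted p under 0.01, 1 chain was higher, and 1126 of all genes were lower; under 0.1, 4 chains were higher. Leaving out 1 library gave 0 to 3 chains higher and 5 to 8 lower, 1603 to 1798 and 1395 to 1740 of all genes, and 19 to 23 and 8 to 12 of the collagen-related genes. The fewest chains were lower without NC 2 (5). No called chain turned direction. The collagen share differed by -0.0796 to -0.0587 points with 1 library left out and by -0.0186 without Col1a1, -0.0309 without type I and -0.0348 for type I alone. The log2 ratio changes ran from -0.12 to -0.09 for Col1a1 to Col1a2, -0.05 to -0.03 for Col4a1 to Col4a2, -0.08 to -0.02 for Col5a1 to Col5a2, -0.43 to -0.37 for Col8a1 to Col8a2, 0.25 to 0.29 for Col11a1 to Col5a1 and -0.04 to -0.001 for Col3a1 to Col1a1. That of Col6a1 to Col6a2, on at most 12 counts, was -0.16 and ran from -0.87 to 0.27 (0.05 without NC 1, 0.27 without siPUM2 3), and was 0.14 from CPM. Depth limits the 15 untested chains and the chains under 1 CPM.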

Other observations

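Proteins that carry a collagen-like stretch without being collagens were listed after results of these data were known. Of 30 such genes 23 were in the table and 13 were tested. With all 6 libraries 2 of them rose and 1 fell, a share no higher than the 28.4% called among all genes. Without NC 2, 3 were higher, and without siPUM2 1 or siPUM2 3, 2 were lower. Colq, the collagen tail that anchors acetylcholinesterase at the muscle endplate, rose from 2.58 ± 0.0554 to 5.58 ± 0.402 CPM (SD, n = 3; log2 fold change 1.11, adjusted p = 3.48e-07, edgeR). C1qtnf5, a secreted relative of complement C1q, rose from a mean of 193 to 232 CPM (0.26 ± 0.0253, SE; adjusted p = 4.00e-09), and Emilin1, a glycoprotein of elastic fibres, fell from 626 ± 15.3 to 563 ± 9.93 CPM (-0.15, adjusted p = 3.19e-05). The other 10 tested genes were not called, among them C1qtnf6 (-0.08) and Scara3 (-0.11).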
